A study of Mus musculus with 196 samples.

Results

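Backcross mice fell into 2 groups by the level of a single gene in dorsal skin, H2-Ea, which encodes the alpha chain of the mouse class II molecule E. The mice were selected on the non-anagen dorsal arrays: a log2 expression value above 9.0 for H2-Ea put a mouse in the H2-Ea-high group, and a value of 9.0 or below in the H2-Ea-low group. Of the 100 mice and 196 arrays of the series, 85 dorsal arrays entered the rule, 38 of them from H2-Ea-high and 47 from H2-Ea-low mice. Tail arrays of 37 and 45 of these mice gave a second tissue that the rule had not used. A further 14 mice with anagen dorsal skin, the growth phase of the hair cycle, stood outside the rule, and their dorsal arrays put 10 of them above the same limit and 4 below it. The word low describes the signal of 1 probe set and does not state absence of the RNA.

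The animals were untreated and 8 weeks old. FVB/N females were bred with Mus spretus males, the resulting F1 females were bred with FVB/N males, and their offspring were studied, so both groups shared this breeding, age and lack of treatment. Total RNA from shaved dorsal skin and from tail skin was hybridised to arrays, 1 per mouse and tissue. The H2-Ea-high dorsal group held 16 females and 22 males, and the H2-Ea-low group 25 females and 22 males. Genotypes were not used here, so the groups are levels of an RNA and not alleles.

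Class II molecules are pairs of an alpha and a beta chain on the surface of dendritic cells, macrophages, B cells and, in skin, Langerhans cells, where they present peptides to CD4+ T cells. Mice make the A molecule from H2-Aa and H2-Ab1, and the E molecule from H2-Ea and H2-Eb1. Inbred strains of several H2 haplotypes, q among them, which FVB/N carries, make no E alpha chain, and H2-Ea, the other class II chains and most class I genes lie together in the major histocompatibility complex on chromosome 17. In a backcross of this kind each mouse inherits 1 copy of every autosome from the FVB/N parent and 1 recombined copy from the F1 parent, so genes near each other on a chromosome tend to be inherited together.

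The RMA log2 values had array medians between 6.09 and 6.70. No arrays were identical. The mean over 12 keratinocyte markers lay between 11.19 and 12.04 in the 85 dorsal arrays of the rule and between 11.15 and 11.55 in the 82 tail arrays of the same mice. These are markers of skin, and they do not tell dorsal from tail skin. No batch held both tissues: dorsal arrays were in batches 1 and 2 and tail arrays in 3 and 4, and tissue cannot be told apart from batch. Batch 2 held 5 arrays of each dorsal group. The arrays are 1 per mouse, and their number limits the precision.

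One tail library went against its label. Over 56 autosomal genes whose levels correlated above 0.7 between the tissues of the same mice, the tail array labelled mouse 1011 had a correlation of 0.03 with the dorsal array of mouse 1011 and of 0.79 with that of mouse 1010. The other 81 tail arrays each correlated best with the dorsal array of their own mouse, with a median of 0.80 and a lowest value of 0.43. The genes were chosen on these same labelled pairs, which raises the correlation of a tail with its own mouse. Without the genes of chromosome 17, over 52 genes, the tail library labelled mouse 1011 gave 0.11 and 0.79. Its H2-Ea value was 9.29 in tail against 7.54 in the dorsal array. Results that rest on it are given with and without it.

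H2-Ea itself had no intermediate values in the dorsal arrays that chose the groups. The H2-Ea-low mice ranged from 6.32 to 8.42 with a median of 7.58, and the H2-Ea-high mice from 10.01 to 11.84 with a median of 10.66. The values nearest the limit were therefore 8.42 on the low side and 10.01 on the high side, and a limit of 10 gave the same groups as 9.0. The group means were 7.50 ± 0.42 (SD, n = 47) and 10.68 ± 0.37 (SD, n = 38). These values chose the mice and are given with no test.

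In tail skin of the same mice, H2-Ea ranged from 5.48 to 9.29 in the H2-Ea-low group, with a median of 6.23, and from 7.67 to 10.07 in the H2-Ea-high group, with a median of 9.37. The groups overlapped only through the tail library labelled mouse 1011, since the next highest H2-Ea-low tail was at 6.92. The difference was 3.06 on the log2 scale (SE 0.11), an 8.36-fold higher level in H2-Ea-high mice, with an adjusted p of 3.75e-40 from limma, and 3.12 without mouse 1011. In the mice outside the rule, tails ranged from 5.90 to 6.84 in the 4 H2-Ea-low mice and from 8.31 to 10.12 in the 10 H2-Ea-high mice, with no overlap. Their dorsal values, which assigned them, ran from 7.34 to 7.88 and from 9.27 to 11.11.

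**Figure D1:**
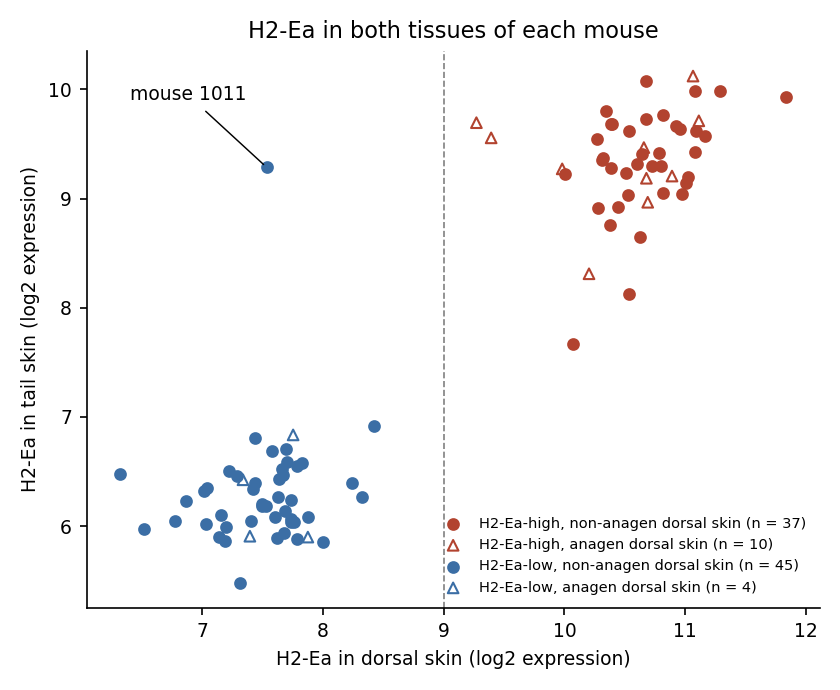
H2-Ea in dorsal skin (horizontal axis, log2 expression) and tail skin (vertical axis, log2 expression), 1 point per mouse with both tissues. Filled circles are mice of the rule, open triangles are mice with anagen dorsal skin, the dashed line is the limit of 9.0, and mouse 1011 alone pairs a low dorsal value (7.54) with a high tail value (9.29).

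The class II chains around H2-Ea were examined next, and 3 of their promoters are shown because these neighbours differed in how much they moved with H2-Ea. Each line gives the 150 bases just before the RefSeq transcription start, read 5′ to 3′ on the strand of the gene, from build GRCm38.p6. Capitals mark the letters CTGATTGG, an inverted CCAAT box known in class II promoters as the Y box, to which the factor NF-Y binds.
H2-Eb1 (chr17:34305717-34305866, + strand): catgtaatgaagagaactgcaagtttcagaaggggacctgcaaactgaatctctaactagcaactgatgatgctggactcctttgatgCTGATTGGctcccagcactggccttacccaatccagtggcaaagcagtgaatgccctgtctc
H2-Eb2 (chr17:34325525-34325674, + strand): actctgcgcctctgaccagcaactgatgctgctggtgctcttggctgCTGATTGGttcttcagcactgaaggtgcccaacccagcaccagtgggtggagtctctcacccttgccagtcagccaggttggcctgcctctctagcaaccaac
H2-Aa (chr17:34287824-34287973, - strand): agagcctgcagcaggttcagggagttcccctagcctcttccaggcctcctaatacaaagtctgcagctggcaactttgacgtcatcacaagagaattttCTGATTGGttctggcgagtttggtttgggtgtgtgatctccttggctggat

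All 3 windows held the motif once, 54, 95 and 43 bases before the start. Searched on both strands, the same letters stood in 3.16% of the 32851 RefSeq windows of this length. A match is a description of the reference sequence, which is not that of the mice studied, and the motif was in the promoter of the gene that moved most and in that of a gene that was not called. H2-Ea and H2-Ab1 were not matched in the promoter table.

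The beta chain that pairs with H2-Ea separated the groups of dorsal skin almost as H2-Ea did. H2-Eb1 ranged from 5.79 to 7.22 with a median of 6.49 in H2-Ea-low mice and from 7.56 to 9.35 with a median of 8.43 in H2-Ea-high mice. The groups did not overlap, and apart from H2-Ea no other gene of 18820 was without overlap in dorsal skin. The difference was 1.92 on the log2 scale (SE 0.071), or 3.79-fold, with a limma adjusted p of 6.3e-40. Dorsal tests of the other genes use the arrays on which the mice were selected for H2-Ea, so the tail arrays are the repeat in arrays the rule did not use. In bulk skin, more cells of a type and more RNA per cell cannot be told apart.

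In tail skin, H2-Eb1 ranged from 5.48 to 6.84 in H2-Ea-low and from 6.19 to 7.42 in H2-Ea-high mice, with medians of 5.87 and 6.84. The difference was 0.95 (SE 0.054; adjusted p 1.93e-25, limma), and it was 0.97 without mouse 1011, where the highest H2-Ea-low value fell to 6.26 and still overlapped the lowest H2-Ea-high value. The difference in tail was smaller than in dorsal skin by 0.97 on the log2 scale (SE 0.092 for the interaction contrast, adjusted p 3.26e-16). The rule used dorsal arrays of the mice, and whether this choice bears on the comparison was not tested. In the mice outside the rule, H2-Eb1 was higher by 1.51 in dorsal and by 0.97 in tail skin.

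The other class II chains moved less. H2-Eb2, a further beta chain gene next to H2-Ea, was higher by 0.28 in dorsal skin (medians 4.56 and 4.31, adjusted p 0.00034) and by 0.19 in tail (medians 4.51 and 4.39, adjusted p 0.00378), with overlapping groups. Its medians lay below 6.49, the median of all gene means, and whether low signal bears on its differences was not tested. H2-Ab1, the beta chain of the A molecule, was higher by 0.38 in dorsal skin, where H2-Ea-high mice ranged from 9.31 to 10.78 and H2-Ea-low mice from 8.97 to 10.37. In tail it was higher by 0.32, and the adjusted p values were 0.000336 and 0.000928. In the dorsal skin of the mice outside the rule its difference was -0.012. H2-Aa, the alpha chain of the A molecule, did not pass the test in either tissue: the differences were 0.043 in dorsal skin (SE 0.060, adjusted p 0.9) and -0.040 in tail (SE 0.062, adjusted p 0.969), and its dorsal medians were 10.43 and 10.35.

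Besides H2-Ea, whose dorsal values chose the mice, 3 of the 4 other class II chains were called higher in dorsal skin, and the same 3 were called higher in tail. The background over all 18820 genes was 0.17% called higher and 0.154% called lower in dorsal skin, and 0.223% called higher and 0.441% called lower in tail skin. Males taken alone gave a difference of 0.22 for H2-Ab1 in dorsal skin (adjusted p 0.723) and 0.26 in tail (adjusted p 0.372), against 0.52 and 0.39 in females. H2-Eb2 was not called in either sex alone: its dorsal difference was 0.18 in females and 0.35 in males (adjusted p 0.831 and 0.0869), and its tail difference 0.22 and 0.15 (adjusted p 0.239 and 0.322). Whether the sexes differed was not tested.

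None of 9 measured genes of class II peptide loading and control was called by limma in either tissue, with 1 of them at an unadjusted p under 0.05 in dorsal skin and 0 in tail. They include Ciita, the master regulator of class II genes, which was higher by 0.11 in dorsal skin (adjusted p 0.699), and Cd74, the invariant chain, which was higher by 0.12 (adjusted p 0.687). The median difference of these 9 genes was 0.012 in dorsal skin and 0.0044 in tail, beside 0.0085 and 0.00 over all genes. Among 20 markers of macrophages and dendritic cells and 7 of B cells, the cells known to carry class II, limma called none in either tissue. At an unadjusted p under 0.05 were 1 and 0 in dorsal skin and 1 and 1 in tail. Over all genes 8.07% and 6.3% had such a p. Over all genes limma called 0.17% higher and 0.154% lower in dorsal skin, and 0.223% and 0.441% in tail. At these shares lists of this size can be without a call, so the counts do not tell them from other genes. The mean over the macrophage and dendritic list ran from 5.83 to 7.48 in H2-Ea-high and from 5.92 to 7.12 in H2-Ea-low dorsal arrays. The B cell list ran from 4.58 to 5.10 and from 4.55 to 5.15.

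**Figure D2:**
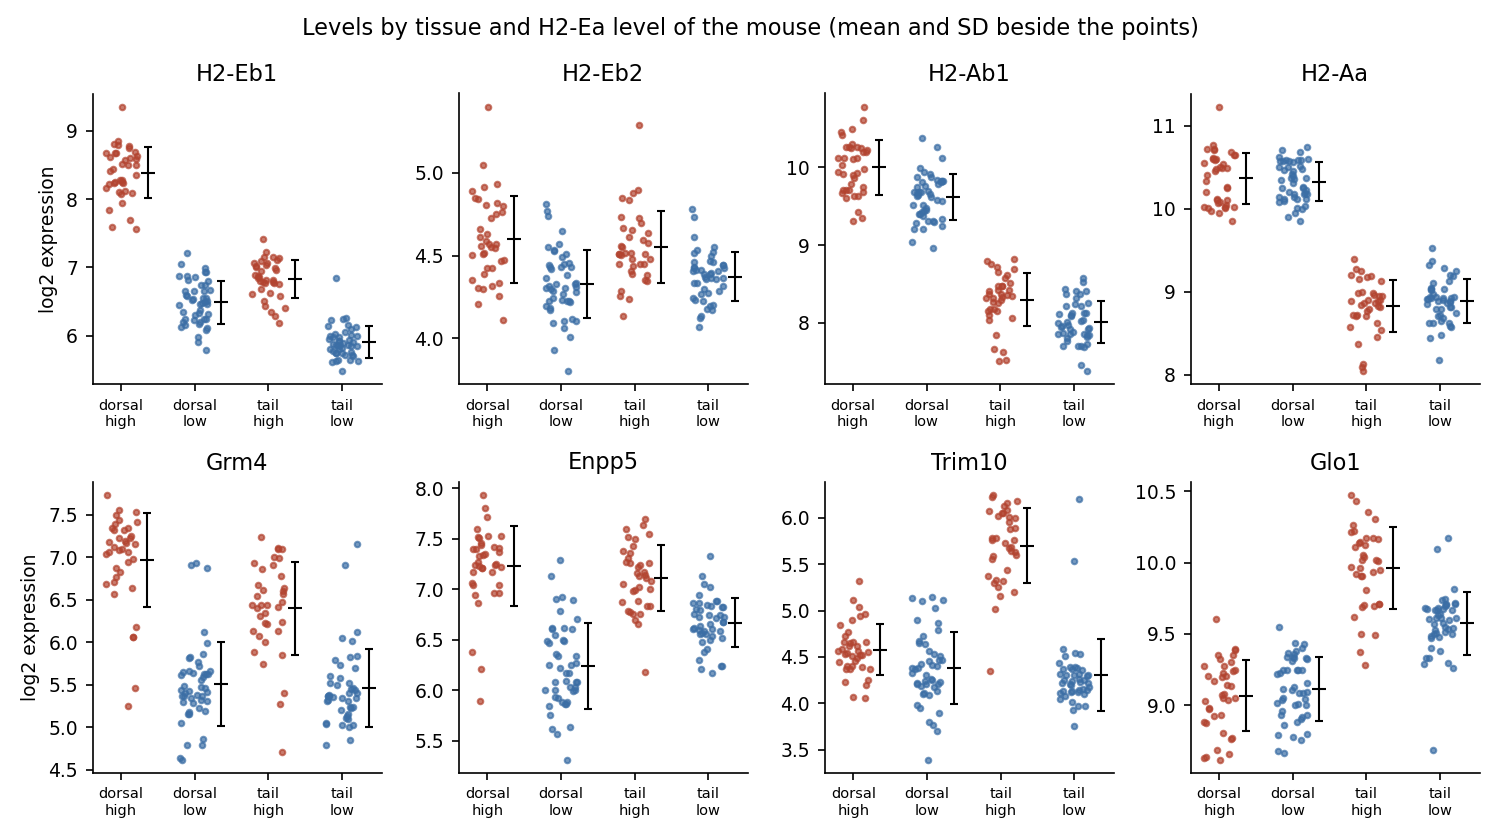
Log2 expression of 8 genes in dorsal and tail skin of H2-Ea-high (red) and H2-Ea-low (blue) mice, 1 point per array, with the mean and SD beside the points. H2-Eb1 separates the dorsal groups, H2-Aa lies at about the same level in both, and Trim10 differs by 1.41 in tail and by 0.20 in dorsal skin.

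Most of the genes that differed lay on chromosome 17. In dorsal skin 32 genes were called higher and 29 lower, and 48 of the 61 were on chromosome 17, which is 5.42% of its 886 measured genes against 0.0725% of the 17934 genes on other chromosomes or not placed. H2-Ea is 1 of these genes and its dorsal call was fixed by the rule; without it 31 were called higher, and 47 of 60 calls were on chromosome 17 (5.31%). In tail skin 42 were called higher and 83 lower, and 117 of the 125 were on chromosome 17, or 13.2% of its genes against 0.0446% of the others. Of the 8 other tail calls, H2-T9 has no chromosome in the table used here. With every array shifted to the same median, tail gave 51 higher and 54 lower. In batch 1 alone, dorsal skin gave 28 higher and 16 lower. Of these genes, 40 were called in both tissues, all in the same direction and 39 of them on chromosome 17, which is 65.6% of the dorsal and 32.0% of the tail calls. Without H2-Ea, 39 were called in both, 38 of them on chromosome 17. The tails came from the same mice and are not a separate sample of animals.

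The same contrast was made in the mice outside the rule, 14 further animals. Their dorsal groups also differed in the hair growth genes Krt25, Krtap15, Krtap8-1 and Prr9, by 1.85, 2.39, 2.36 and 1.98. In the mice of the rule these differences were 0.18, 0.23, 0.15 and 0.19. The part of hair cycle stage in this dorsal contrast was not tested. In the mice outside the rule, limma called 1 gene in dorsal skin, H2-Ea, which assigned those mice. In their tails it called 2, H2-Ea and Trim10. An unadjusted p under 0.05 was seen for 951 genes in dorsal skin and 735 in tail. Of the other 47 chromosome 17 genes called in dorsal skin, 42 had the same direction in the dorsal skin of these mice, and of 116 called in tail, 115 had the same direction in their tails. The same direction was seen in 63.7% and 67.3% of all chromosome 17 genes and in 52.7% and 52.4% of all genes. Of the 13 dorsal calls on other chromosomes, 6 had the same direction, and of the 7 tail calls placed on another chromosome, 3 did.

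The genes next to H2-Ea were not all called. Over all of chromosome 17, 5.42% of measured genes were called in dorsal skin and 13.2% in tail. Over all 18820 genes, 0.17% were called higher and 0.154% lower in dorsal skin, and 0.223% and 0.441% in tail. Of the 10 measured genes on either side in RefSeq order, 3 were called in dorsal skin, all of them higher class II beta chains. In tail 7 of the 20 were called, 5 higher and 2 lower. Besides the same 3 beta chains these were Btnl2, a butyrophilin-like gene that follows H2-Ea directly (0.17 higher, adjusted p 0.00222), BC051142 (0.18 higher, adjusted p 0.0239, but 0.119 with arrays shifted to the same median and 0.0567 with the limit on H2-Ea at 8), the homeobox gene Pbx2 (fell by 0.18, adjusted p 0.000542) and Ager, the receptor for advanced glycation end products (fell by 0.24, adjusted p 0.000257).

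Between H2-Ob and H2-DMa, before H2-Ea, lie the peptide transporter genes Tap1 and Tap2 and the immunoproteasome genes Psmb8 and Psmb9. In dorsal skin their differences were 0.13, 0.15, 0.14 and 0.31, and none passed the test; Psmb9 came closest (adjusted p 0.0604). In tail they were 0.0086, -0.033, 0.015 and 0.053. Over all 14 measured genes of class I peptide loading limma called none in either tissue, with 4 and 0 at an unadjusted p under 0.05. In dorsal skin such a p was seen for 8.07% of all genes and 24.4% of chromosome 17 genes. In tail it was seen for 6.3% of all genes. Over all genes limma called 0.17% higher and 0.154% lower in dorsal skin, and 0.223% and 0.441% in tail. The median difference of the 14 was 0.077 in dorsal skin and 0.013 in tail, beside 0.0085 and 0.00 over all genes.

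Class I chains, which present peptides to CD8+ T cells or serve as nonclassical ligands, moved in both directions. In dorsal skin 5 of 26 measured members were called higher and 1 lower, and in tail 5 higher and 6 lower. The 6 include H2-Ke6, which encodes no class I chain. Over all chromosome 17 genes 5.42% were called in dorsal skin and 13.2% in tail. Over all 18820 genes, 0.17% were called higher and 0.154% lower in dorsal skin, and 0.223% and 0.441% in tail. Whether class I chains differed from these shares was not tested. H2-Q8, of the Q family, ranged from 6.30 to 8.04 in H2-Ea-low and from 7.43 to 9.08 in H2-Ea-high dorsal skin. The groups overlapped in part, with medians of 7.20 and 8.28. The difference was 1.02 in dorsal skin (SE 0.085, adjusted p 1.67e-16) and 0.64 in tail (SE 0.066, adjusted p 4.17e-12). Its neighbour in the family, H2-Q6, went the other way, lower in dorsal skin by a difference of -0.45 (adjusted p 0.00532) and with -0.28 in tail (adjusted p 0.000519).

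The nonclassical genes H2-M2 and H2-M3 were higher in both tissues. H2-M2 had medians of 8.77 and 9.27 in dorsal skin and of 5.84 and 6.79 in tail, where the difference was 0.88 (SE 0.080, adjusted p 1.67e-14) against 0.48 in dorsal skin (adjusted p 1.54e-06). Its difference in the dorsal skin of the mice outside the rule was -0.35, and in their tails 0.85. H2-M3, which presents formylated peptides, was higher by 0.40 in dorsal skin and by 0.58 in tail, with an adjusted p of 1.03e-16 in tail. H2-K2 (0.43 and 0.17) and H2-T23, the gene of Qa-1 (0.24 and 0.15), were also called higher in both tissues, although H2-T23 in batch 1 of dorsal skin alone differed by 0.22 with an adjusted p of 0.0649.

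Called lower in tail and not called in dorsal skin were H2-M9 (-0.70, adjusted p 1e-06), the classical class I gene H2-K1 (-0.29, adjusted p 5.5e-07), H2-T9 (-0.19), H2-T10 (-0.17) and H2-Ke6 (-0.19), and the differences of their effects between tissues did not pass the test. H2-T10 and H2-Ke6 were not called in tail once all arrays had been given the same median (adjusted p 0.0517 and 0.217). With the limit on H2-Ea at 8, H2-T10 was not called in tail (adjusted p 0.0847) and H2-M9 was called lower in dorsal skin as well (-0.45, adjusted p 0.0247). H2-Ke6, counted in this list by its symbol, encodes a steroid dehydrogenase and no class I chain. H2-T9 has no chromosome in the RefSeq table used. Class I genes are near-identical copies of each other, so each value belongs to its probe set and may hold signal from relatives. Whether Mus spretus and FVB/N RNA bind these probes equally was not tested.

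Of 44 measured genes of the class III region, between class I and class II, 2 were called lower in dorsal skin and none higher, and 7 lower and 1 higher in tail. Tail calls over the whole of chromosome 17 were also mostly lower, 79 against 38. Over all its measured genes, 5.42% were called in dorsal skin and 13.2% in tail. Whether the class III or the extended class II region differed from these shares was not tested. Once all arrays had been given the same median, 5 class III genes were called lower in tail and 2 higher. C2, a complement component, was lower in both tissues, with differences of -0.36 in dorsal skin (adjusted p 0.0453) and -0.46 in tail (adjusted p 5.28e-07); without mouse 1011 the dorsal difference was -0.35 and its adjusted p 0.0662. Abhd16a, a lipid hydrolase, was lower by similar amounts in both, -0.33 and -0.29. Its tail medians were 8.11 in H2-Ea-low and 7.83 in H2-Ea-high mice (adjusted p 1.73e-12). In the extended class II region, 1 of 17 genes was called lower in dorsal skin and 2 in tail, among them the retinoid receptor gene Rxrb (-0.16 in tail, adjusted p 0.000241).

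Outside these gene lists of the complex, single genes of chromosome 17 differed by far more than the median size of 0.065 over its genes in dorsal skin. Grm4, a metabotropic glutamate receptor, lay 145 measured genes before H2-Ea. Its dorsal values ranged from 4.62 to 6.94 in H2-Ea-low and from 5.25 to 7.73 in H2-Ea-high mice, with medians of 5.44 and 7.11, so most mice were apart and a few crossed. The difference was 1.48 (SE 0.11, adjusted p 1.58e-19), or 2.8-fold, in dorsal skin and 0.93 (SE 0.11, adjusted p 3.09e-10), or 1.9-fold, in tail.

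Enpp5, of the ectonucleotide pyrophosphatase family, lay 179 genes after H2-Ea. It ranged from 5.31 to 7.29 in H2-Ea-low and from 5.89 to 7.93 in H2-Ea-high dorsal skin, a difference of 0.97 (SE 0.086, adjusted p 6.15e-15). In tail the difference was 0.43 (adjusted p 7.08e-07). Cyp4f16, a cytochrome P450, was higher by 0.70 in dorsal skin and by 0.67 in tail, with medians of 7.10 and 7.81 in dorsal skin. Rpp21, a protein of ribonuclease P whose gene lies between H2-T10 and H2-M9, was higher by 0.62 and 0.36. The lipid transporter Abca3 was higher by 0.46 and 0.35. Catsperd, a part of the sperm calcium channel, was called in dorsal skin (0.48, adjusted p 0.000178) and not in tail (0.12, adjusted p 0.42).

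Among the genes lower in H2-Ea-high mice, 9130008F23Rik had the largest dorsal difference of those called on chromosome 17. It ranged from 5.99 to 7.20 in H2-Ea-low and from 5.39 to 6.77 in H2-Ea-high mice, a difference of -0.70 (SE 0.064, adjusted p 2.54e-14), and of -0.38 in tail. Zfp677, a zinc finger gene 300 genes before H2-Ea, differed by -0.57 in dorsal skin and -0.38 in tail. Cbs, which makes cystathionine from homocysteine, differed by -0.53 (adjusted p 7.93e-06) and -0.42 (adjusted p 2.56e-07). The zinc finger genes Zfp952 (-0.40 and -0.37) and Zfp942 (-0.35 and -0.17), and Znrd1as (-0.37 and -0.29) and 2310039H08Rik (-0.35 and -0.29), were called lower in both tissues. The tail call of Zfp942 was lost with arrays shifted to the same median (adjusted p 0.138) and with the limit on H2-Ea at 8 (adjusted p 0.216). Cenpq, a centromere protein, was lower in dorsal skin (high minus low -0.52, adjusted p 5.5e-07) and did not pass the test in tail (-0.20, adjusted p 0.0816).

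Along the chromosome the called genes spread over most of its length. In RefSeq order, 402 measured genes come before H2-Ea and 482 after it. In dorsal skin 12% of the 50 genes just before H2-Ea were called and 8% of the 50 just after it, and in tail 24% and 22%. The share did not fall evenly: the run from 251 to 300 genes before H2-Ea held 12% called in dorsal skin, all 6 of them lower, and 26% in tail. After H2-Ea the shares fell to 0% in the dorsal runs from 251 to 300 and from 351 on, and to 2% in the tail run from 351 to 400.

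The farthest called genes on either side in dorsal skin were Tcp1, a chaperonin subunit 362 genes before H2-Ea, and Catsperd, 321 genes after it. In tail they were Gtf2h5, 392 before, and Trmt61b, 391 after. The last 82 measured genes after position 400 held no called gene by limma in either tissue, with 16 at an unadjusted p under 0.05 in dorsal skin and 7 in tail. The typical size of a difference was small everywhere: its median over chromosome 17 was 0.065 in dorsal and 0.057 in tail skin, beside 0.048 and 0.034 over all genes.

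**Figure D3:**
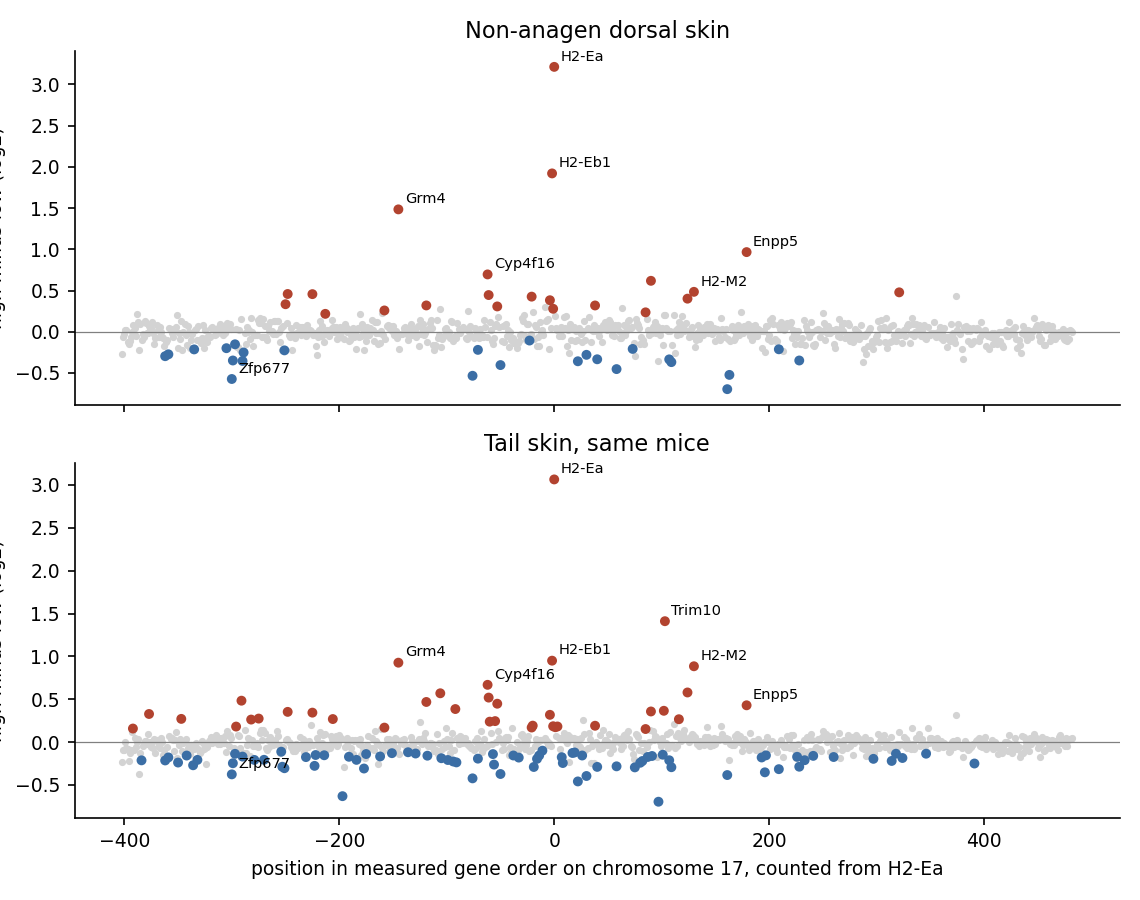
Difference between H2-Ea-high and H2-Ea-low mice (vertical axis, log2) for chromosome 17 genes in measured gene order counted from H2-Ea (horizontal axis), dorsal skin above and tail skin below. Red and blue points were called higher and lower by limma and grey points were not called; called genes run from 362 before to 321 after H2-Ea in dorsal skin and from 392 before to 391 after it in tail.

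Single mice showed how far the levels of these genes went together. A mouse was counted as crossing when its value lay nearer the mean of the other group, among the 82 mice with both tissues. For H2-Eb1, next to H2-Ea, 0 mice crossed in dorsal skin and 4 in tail. For Grm4, 7 crossed in dorsal skin and 11 in tail, and 5 of these were the same mice in both tissues. For H2-Q8 the counts were 11 and 10, with 2 in both. Lowering the size required of a gene, a choice made after the data had been seen, added 6 genes. In order along the chromosome, Zfp677 had 16 mice crossing in dorsal skin, 20 in tail and 12 in both, Cbs 20, 16 and 5, and Cyp4f16 13, 6 and 1. After H2-Ea, Rpp21 had 12, 13 and 5, 9130008F23Rik 9, 17 and 3, and Enpp5 8, 16 and 5. Counts in both tissues were the same without mouse 1011. Where a difference is small relative to its spread, more mice can cross through error, and that part was not tested. The dorsal difference was 5.56 pooled SDs for H2-Eb1, 2.87 for Grm4 and 1.59 for Zfp677.

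The effect differed between the tissues for 5 genes, all on chromosome 17. It was larger in tail for 2 of 18820 genes (0.0106%) and larger in dorsal skin for 3 (0.0159%). Trim10, a tripartite motif gene known from red cell development, ranged from 4.35 to 6.24 in H2-Ea-high tails and from 3.76 to 6.20 in H2-Ea-low tails, with medians of 5.76 and 4.24. The highest H2-Ea-low value came from the tail library labelled mouse 1011, and without it the highest was 5.53. The difference was 1.41 in tail (SE 0.083, adjusted p 6.5e-25), a 2.66-fold level, and 0.20 in dorsal skin (adjusted p 0.389), where the medians were 4.55 and 4.37. These dorsal medians were close to the 4.24 of H2-Ea-low tails and below 6.49, the median of all gene means. Whether low signal limits the dorsal difference was not tested. The effects differed by 1.21 (interaction adjusted p 3.26e-16, limma), and in the mice outside the rule Trim10 was higher by 1.44 in tail and by 0.31 in dorsal skin.

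Glo1, the glyoxalase that detoxifies methylglyoxal, was higher by 0.39 in tail (medians 10.01 and 9.60) and had a difference of -0.056 in dorsal skin (medians 9.07 and 9.11), and the effects differed by 0.44 (adjusted p 0.000359). Enpp5 had the larger effect in dorsal skin, by 0.54 on the log2 scale (a tail minus dorsal difference of -0.54, adjusted p 0.00969); in the largest batch of each tissue this difference was -0.51 and its adjusted p 0.0942. Dact2, a modulator of Wnt signalling, differed by 0.20 in dorsal skin and by -0.19 in tail, neither of which passed the test, and the effects differed by -0.37 (adjusted p 0.0299). With arrays shifted to the same median that difference was -0.34 and its adjusted p 0.107. The effects of Grm4, H2-Q8 and H2-M2 were not called different between tissues (adjusted p 0.533, 0.816 and 0.732).

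**Figure D4:**
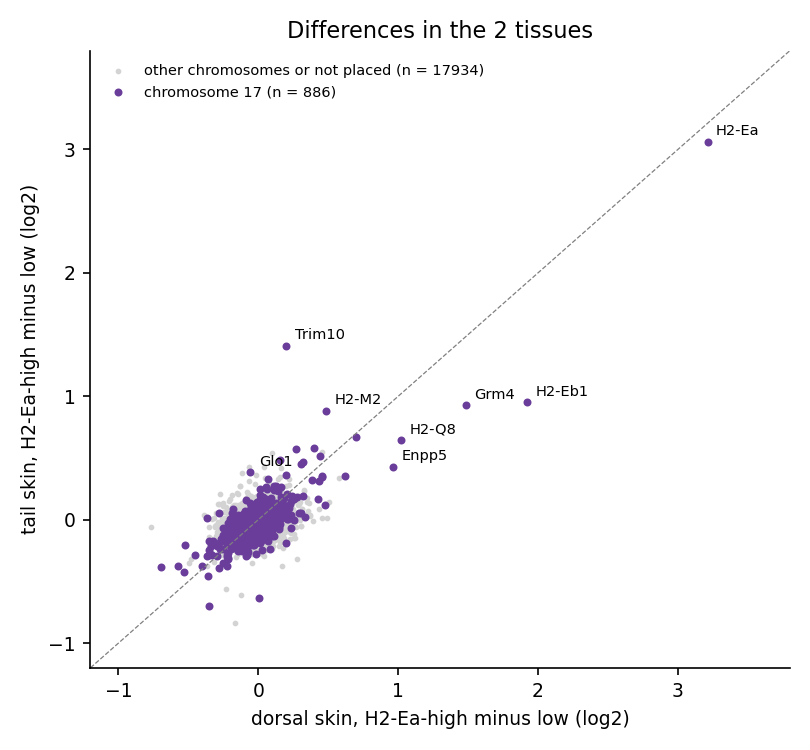
Difference between H2-Ea-high and H2-Ea-low mice in dorsal skin (horizontal axis, log2) and tail skin (vertical axis, log2), 1 point per gene, with the 886 genes of chromosome 17 in purple. Points on the dashed line have equal differences; H2-Eb1 and Enpp5 lie below it and Trim10 and Glo1 above it.

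Few genes elsewhere were called. In dorsal skin 9 were called higher and 4 lower off chromosome 17, and 6 of these 13 were still called without mouse 1011, when 7 genes off the chromosome were called in all. Xcl1, a chemokine of T and NK cells on chromosome 1, ranged from 4.86 to 7.84 in H2-Ea-high and from 5.03 to 6.35 in H2-Ea-low mice, a difference of 0.37 (adjusted p 0.0436; 0.0665 without mouse 1011). The other genes called higher included Kcnip3 (0.36), the retroviral element Erv3 (0.35), Ttc9 (0.27, adjusted p 0.0041) and Gpr15, a homing receptor of T cells (0.23, adjusted p 0.0106). Those called lower were Tdp2, a DNA repair phosphodiesterase (-0.30), Bclaf3 (-0.30), the Polycomb gene Phc3 (-0.29) and Acadm, an enzyme of fatty acid oxidation (-0.25). Acadm, Bclaf3, Erv3 and Kcnip3 were also not called without mouse 1011, with adjusted p values of 0.0635, 0.0547, 0.0608 and 0.0529. In batch 1 alone Xcl1, Kcnip3, Erv3, Tdp2, Phc3 and Acadm were not called, with adjusted p values from 0.103 to 0.33. Kmt5a, a histone methyltransferase named here after its values were seen, was the only one of the 13 also called in tail (0.16 and 0.15); in dorsal skin its adjusted p was 0.0453, and 0.0665 without mouse 1011. In tail 7 genes placed on other chromosomes were called. The largest difference was that of Scgb2b24, a secretoglobin gene on chromosome 7, which was higher by 0.55 in tail (SE 0.13, adjusted p 0.0101) and had a difference of 0.46 in dorsal skin that did not pass the test (adjusted p 0.348). Lynx1 (0.25) and Gm13498 (0.15) were also higher in tail, and Cntln (-0.26), Acad10 (-0.25) and Mapre3 (-0.22) lower.

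The lists of other cell types and programmes held almost no calls. Few genes were called anywhere: 0.17% of all genes higher and 0.154% lower in dorsal skin, and 0.223% and 0.441% in tail. Lists of this size can be without a call at these shares. Of 19 T cell markers, Xcl1 was called in dorsal skin and none in tail, and 3 had an unadjusted p under 0.05 in dorsal skin and 0 in tail; Cd3e was at 0.25 in dorsal skin (adjusted p 0.39). The mean over the T cell list ran from 5.80 to 6.96 in H2-Ea-high and from 5.78 to 6.46 in H2-Ea-low dorsal arrays, and its part in the results was not tested. Of 9 mast cell markers, the tryptase Tpsab1, which itself lies on chromosome 17, was called lower in tail (-0.63, adjusted p 0.0042), and none was called in dorsal skin.

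Among 18 interferon response genes limma called none in either tissue, with 6 at an unadjusted p under 0.05 in dorsal skin and 3 in tail. In 7 further lists with 72 measured genes, from keratinocytes to melanocytes, it also called none, with 3 at such a p in dorsal skin and 1 in tail. Over all genes 8.07% and 6.3% had such a p. The largest median differences among these lists were -0.26 for 10 skeletal muscle genes and 0.18 for 18 interferon response genes, both in dorsal skin. In the muscle list the fast myosin Myh4 had a difference of -0.77 (SE 0.43, adjusted p 0.659). In the interferon list, the mean ran from 5.37 to 8.24 in H2-Ea-high and from 5.20 to 6.69 in H2-Ea-low arrays, with Cxcl9 at 0.46 (adjusted p 0.601) and Oasl2 at 0.44 (adjusted p 0.533). The part of these shifts in the results was not tested.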

How the data were processed

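The deposited log2 expression values came from RMA, per the submitters' processing notes, which corrects background, normalizes arrays by quantiles and summarises probes. Its version, and any later step of the authors, is not given in the sources used here. Of 35556 probe sets, 21218 named 1 gene, 1881 several and 12457 none. The probe set with the highest mean was kept for the 1386 genes with several, which left 18820 genes, 18787 of them matched to RefSeq (GRCm38.p6) by gene ID. The files name no genome build, so gene order alone was taken from RefSeq.

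The log2 values were modelled in limma 3.58.1 (lmFit and eBayes, R 4.3.3) on the H2-Ea level with sex and batch as covariates. Calls were made at a Benjamini-Hochberg adjusted p below 0.05 across the whole table. The tissue difference was an interaction contrast over both tissues of the same mice, with sex within tissue and batch. Its main fit held no term for mouse, so the arrays of a mouse were treated as independent. Mouse as the replicate block was an alternative. Mice outside the rule were fitted with sex. The fits were checked on simulated data. Labels give mouse numbers in both tissues, so arrays were matched by mouse number. Over genes chosen on these same pairs, 81 of 82 tails correlated best with their own dorsal array. The rule, the members and the gene lists were chosen with earlier results of these data known. Named genes were H2-Ea, the 10 measured neighbours on either side, called members of the class II, class I and peptide loading lists, the 10 called genes of largest dorsal difference in each direction on chromosome 17 and the 5 on other chromosomes, the 5 largest called tissue differences in each direction and up to 4 members of each other list; Ciita, Cd74, Tcp1, Gtf2h5, Trmt61b, Tpsab1, Kmt5a and the 6 other tail calls on other chromosomes were named after their values were seen. Alternatives changed the covariates, batches, scaling, low-value filter, limit on H2-Ea, probe sets, sex and mouse 1011. Tables and figures were made with Python 3.11.15, numpy 2.4.6, pandas 2.3.3 and matplotlib 3.10.9.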

Additional observations from a re-analysis of the deposited data

Results flagged for a closer look

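The effect of the H2-Ea level differed between tail and dorsal skin for 5 genes, by an interaction contrast over arrays of the same mice. The effect in tail minus that in dorsal skin was 1.21 for Trim10 and 0.44 for Glo1 on the log2 scale, larger in tail. It was -0.97 for H2-Eb1, -0.54 for Enpp5 and -0.37 for Dact2. Dact2 was the only one of these whose differences within each tissue (0.20 and -0.19) did not pass the test.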

How the results depend on the processing

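With mouse as the replicate block, which gave a correlation within mouse of 0.077, the paired fit called the same number of tissue differences, 2 larger in tail and 3 larger in dorsal skin; for H2-Eb1 the difference was -0.98, and no call of the 5 changed. H2-Ea in tail was called under each alternative run, between 2.76 and 3.31. No called value of a named gene changed sign. Females alone gave 22 dorsal calls (17 higher, 5 lower, 22 on chromosome 17, 0 elsewhere) and 44 tail calls (22 higher, 22 lower, 43 and 1), and males alone 15 (9 higher, 6 lower, 15 and 0) and 73 (24 higher, 49 lower, 67 on chromosome 17), with fewer arrays; 37 and 32 results of single named genes then lost their call. The largest batch gave 16 lower dorsal calls. Calls off chromosome 17 in dorsal skin numbered 8 without covariates, 7 in the largest batch, 7 with the limit at 8.0 and 7 without mouse 1011; in tail they numbered 5 with the low-value filter and 4 with the limit at 8.0. In tail, the median shift gave 54 lower calls and the filter 20 higher; 1 gene had a larger effect in tail after the filter, which left out Trim10. The tails of the mice outside the rule gave 2 calls. Some of these settings used fewer arrays or genes, and the causes of the changes were not tested. Without mouse 1011, 50 of the 61 dorsal and 123 of the 125 tail calls remained. Probe sequences, genotypes and signal over background were not used here, so probe binding and low signal limit single values.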
